A study of Mus musculus with 22 samples.

Results

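The transcriptome of mouse skin fibroblasts was compared on day 4 after surgery between animals that carried an expander under the skin (EXP) and operated controls without one (CTRL). The comparison used the 3 EXP and 4 CTRL libraries that the labels assign to day 4, 7 of the 22 libraries of the series, and every gene with enough counts to be tested (17554 genes). Per the labels, all mice of both groups went through the same operation, an incision near the tail and a path opened under the skin toward the neck, and only EXP mice received a hydrogel that swells in place near the neck. The cells were sorted from skin as DAPI-negative cells positive for CD34 and PDGFRα after exclusion of CD31, CD45, CD117 and EpCAM. Stretch of the skin and contact with the gel cannot be told apart in this design. The labels give no strain, age or sex and do not say that each library comes from its own mouse. The p-values therefore measure the spread between these libraries.

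Dermal fibroblasts make and remodel the collagen-rich matrix of the skin. After wounding or under tension they can divide, contract, secrete cytokines that call in leukocytes, and change the enzymes that crosslink or cut collagen. Skin expanders are used in reconstructive surgery because stretched skin grows, and the dermal fibroblast is one of the cells that responds to the load.

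Levels are given as counts per 1000000 on TMM-scaled library totals (CPM), in the order of the replicate numbers, CTRL 1 to 4 and EXP 1 to 3. Differences are log2 fold changes of EXP against CTRL with their standard error (SE), from edgeR's quasi-likelihood test fitted to all 22 libraries. A gene was called at a Benjamini-Hochberg adjusted p under 0.05 over all 17554 genes, and every adjusted p below is of this kind unless another test is named. Lists of genes are described by the number and the percentage of their tested members called. These are to be read against the 12.8% of all genes called higher and the 9.66% called lower. The lists were chosen with earlier results of these data known, so a difference from these shares is not a test of a list.

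The 7 libraries held 24833235 to 30210204 counts. By counts, the EXP libraries differed more among themselves (chi-square per degree of freedom of 207 to 403 between pairs) than the CTRL libraries did (59.1 to 127). Pearson correlations of log2 CPM between pairs overlapped, at 0.915 to 0.949 in EXP and 0.945 to 0.971 in CTRL. On the first principal component of the 7 libraries, which carried 51.5% of the variance, CTRL lay between -78.7 and -38.6, and EXP 1, 2 and 3 lay at 126, 88.7 and 25.3. EXP 3 was thus the EXP library nearest to the controls. The mean level of 192 genes, those correlated above 0.9 with Rnf10 once group means are removed, divided the controls, with CTRL 3 and CTRL 4 on the high side and CTRL 1, CTRL 2 and all EXP libraries on the low side. Calls without CTRL 3 and CTRL 4, and on the day 4 libraries alone, are given with each pathway list below. In bulk samples like these, fewer cells of a type and less RNA per cell cannot be told apart. Transcripts of Col1a1, Col1a2 and Col3a1 together took 20.6% to 27.9% of all counts in CTRL and 9.78%, 15.2% and 24.2% in EXP 1, 2 and 3. In the fit without TMM scaling the median log2 fold change of all genes was 0.36, against 0.03 with it, and the calls went from 2248 higher and 1695 lower to 4269 higher and 1018 lower.

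The sorted surface proteins were checked first. Pdgfra (ENSMUSG00000029231), the receptor used for the sort, was at 295, 275, 335 and 279 CPM in CTRL and 864, 295 and 378 CPM in EXP (log2 fold change 0.79 ± 0.28, adjusted p 0.0456). Its EXP and CTRL values overlapped, and the call was lost without any single CTRL library (adjusted p 0.0742, 0.0849, 0.0619 and 0.0924) and without EXP 1 (adjusted p 0.652). Cd34 (ENSMUSG00000016494) stood at 2338, 2346, 1812 and 1383 CPM in CTRL and 442, 1552 and 1116 CPM in EXP, a difference of -0.93 ± 0.39 that did not pass the test (adjusted p 0.0948). Of the genes for the excluded proteins, Ptprc (CD45) was at 0 in the CTRL libraries and at 0 to 0.243 CPM in EXP, Kit (CD117) reached at most 0.393 CPM, and Epcam lay at 0.419 to 1.8 CPM in CTRL and 0.0268 to 0.625 CPM in EXP. Pecam1 (CD31) was at 0.168 to 1.76 CPM in CTRL and 1.23 to 3.68 CPM in EXP. The excluded lineages thus stayed below 4 CPM at these genes in both groups. Of the 9 fibroblast markers 1 was called higher (Pdgfra, 11.1%) and 3 lower (Col1a1, Dcn and Lum, 33.3%), and their summed CPM were 267550.0 to 369622 in CTRL and 83705, 163115 and 280655 in EXP, most of it collagen transcripts.

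On day 4, 3943 of 17554 genes (22.5%) were called, 2248 higher in EXP (12.8%) and 1695 lower (9.66%). In 2419 genes (13.8%) all 3 EXP libraries lay above all 4 CTRL libraries, and in 2063 (11.8%) all lay below. The median log2 fold change of all tested genes was 0.03. Fitted to the 7 day 4 libraries alone, the test called 1128 of 15845 genes, 742 higher and 386 lower, and without CTRL 3 and CTRL 4 it called 1368. The total was 1633 without EXP 1, 2001 without EXP 2 and 5011 without EXP 3. In the genes called higher, the median distance from the CTRL mean was 1.36 in EXP 1, 1.29 in EXP 2 and 0.69 in EXP 3 on the log2 scale, and in those called lower it was -1.56, -1.32 and -0.75.

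**Figure D1:**
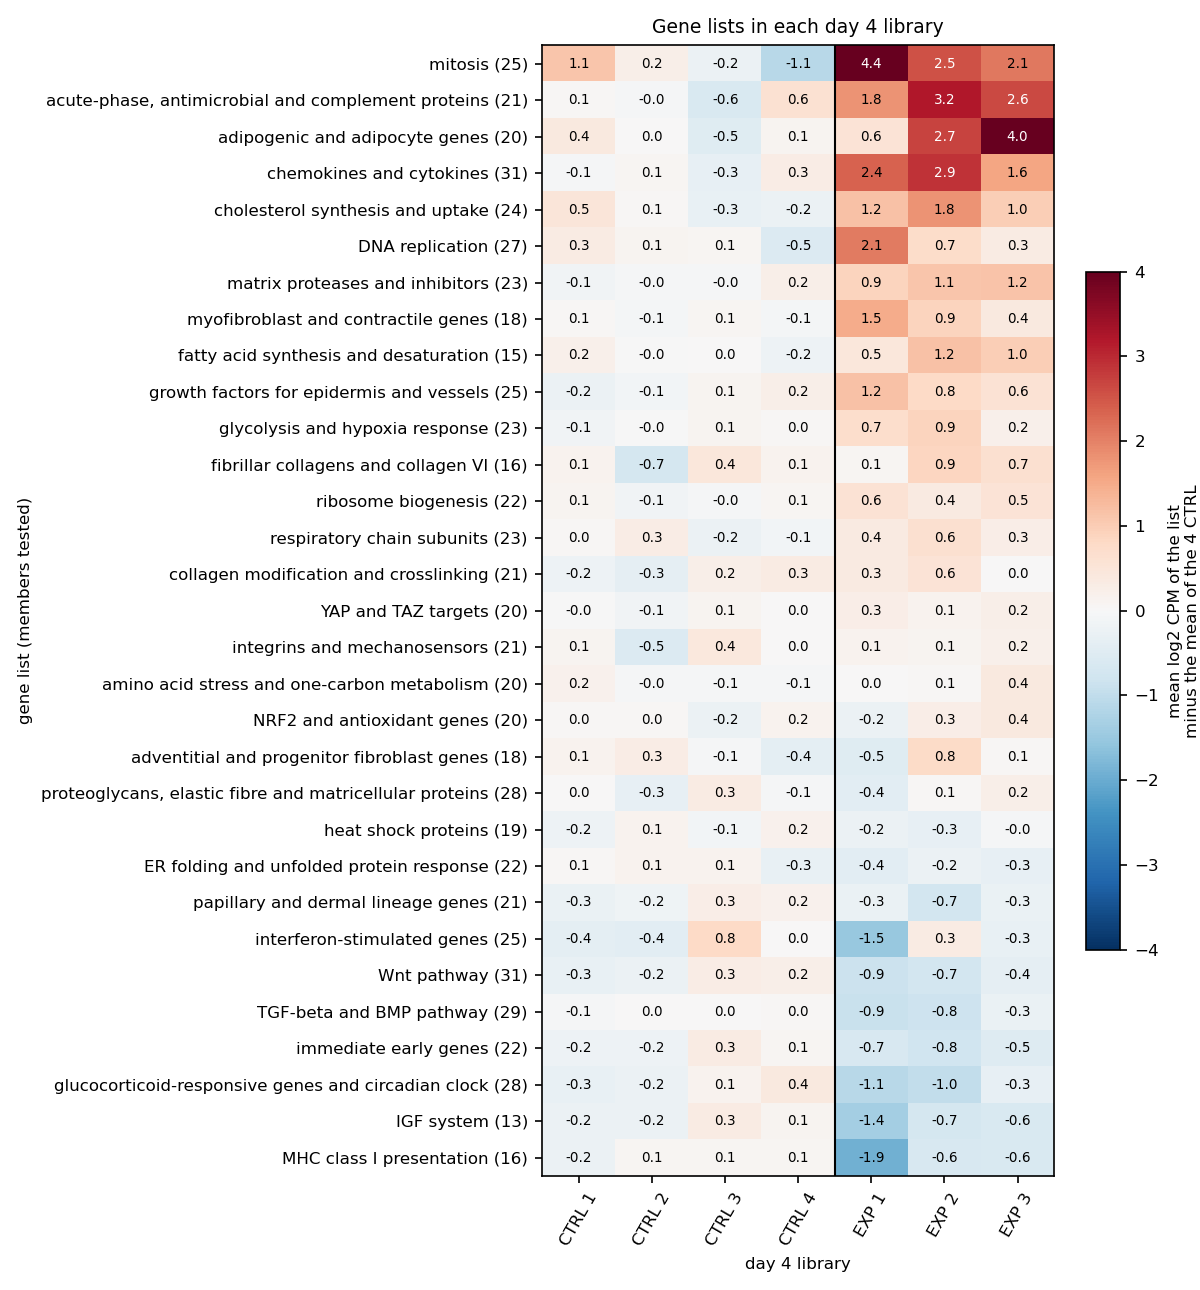
Rows are the 31 pathway gene lists with the number of tested members, columns the 7 day 4 libraries, and each cell gives the mean log2 CPM of the list minus the mean of the 4 CTRL libraries (colour scale from -4 to 4). Mitosis stood highest in EXP 1 and the adipogenic list highest in EXP 3, while chemokines and acute-phase genes were high in all 3 EXP libraries.

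Averaged over the EXP libraries, this value of a list can differ in sign from the median log2 fold change given below. That was so for the collagens, YAP and TAZ targets, integrins and mechanosensors, and adventitial genes. Their averages lay above 0 and their medians below, and the signs also differed for the pericyte and Schwann cell marker lists. Single libraries differed in other lists too, such as interferon-stimulated genes in EXP 2 (0.34, median -0.76).

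Signalling proteins that attract and activate leukocytes were the first group examined. Of 31 tested chemokine and cytokine genes, 17 were called higher (54.8%) and 3 lower (9.68%), with a median log2 fold change of 2.30. Cxcl1 (ENSMUSG00000029380), a chemokine for neutrophils, was at 559, 546, 445 and 859.8 CPM in CTRL and 6799.9, 9364 and 2213 CPM in EXP (log2 fold change 3.35 ± 0.40, adjusted p 8.78e-05). Every EXP library lay above every control, EXP 2 highest and EXP 3 lowest. Il33 (ENSMUSG00000024810), an alarmin released from damaged cells, was at 12, 12, 15.3 and 31.9 CPM in CTRL and 708, 769 and 299 CPM in EXP (5.05 ± 0.62, adjusted p 0.000129). Its receptor chain Il1rl1 (ENSMUSG00000026069) was at 20.3, 5.62, 13 and 26.1 CPM in CTRL and 1499.9, 552 and 479 CPM in EXP (5.70 ± 0.72, adjusted p 0.000143), so ligand and receptor rose together in all 3 EXP libraries. Il11 (ENSMUSG00000004371), a cytokine of the IL-6 family that acts on fibroblasts themselves, went from 1.64, 1.84, 1.63 and 1.3 CPM to 227, 47.3 and 12.5 CPM (5.89 ± 0.72, adjusted p 0.000129), with EXP 1 far above the others.

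The neutrophil growth factor Csf3 and the chemokine Cxcl5, named after their values were seen, were called at log2 fold changes of 7.45 ± 1.04 and 7.62 ± 1.09. Cxcl12, which holds leukocytes and progenitors in tissue and was named in the same way, rose by 3.30 ± 0.49. The 3 members called lower were Csf1, the macrophage growth factor (579.9 to 1005 CPM in CTRL, 282 to 382 CPM in EXP, -1.14 ± 0.21), the membrane-bound chemokine Cx3cl1 (-1.56 ± 0.35) and Ccl19, a chemokine for dendritic and T cells (106 to 247 CPM in CTRL, 0.912 to 42.4 CPM in EXP, -2.78 ± 0.75). Ccl7, a monocyte chemokine and one of the 2 members with the highest CPM, was at 1159.8, 3000.5, 908 and 2207 CPM in CTRL and 1344, 4215 and 1311 CPM in EXP and did not pass (0.33 ± 0.42, adjusted p 0.607). With only the day 4 libraries 15 members were called higher and 2 lower, and without CTRL 3 and CTRL 4 16 and 2.

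Acute-phase, antimicrobial and complement proteins, which the liver and barrier tissues make in inflammation, gave 12 higher calls and 0 lower ones among 21 tested members (57.1% higher and 0% lower, median 1.59). Hp (ENSMUSG00000031722), haptoglobin, which binds free haemoglobin, was at 2.18, 1.29, 0.545 and 1.64 CPM in CTRL and 612, 708 and 689 CPM in EXP (8.89 ± 1.35, adjusted p 0.000421). The 3 EXP libraries were nearly level, and no control passed 2.18 CPM. Lbp (ENSMUSG00000016024), which presents bacterial lipopolysaccharide, was at 63.9, 49.2, 28.7 and 54.9 CPM in CTRL and 427, 1953 and 754 CPM in EXP (4.41 ± 0.64, adjusted p 0.000318). Slpi (ENSMUSG00000017002), a protease inhibitor with antimicrobial activity, was at 5.46, 4.85, 11.3 and 8.22 CPM and 126, 54.3 and 259 CPM (4.29 ± 0.61, adjusted p 0.000291). The antimicrobial lectin Reg3g (ENSMUSG00000030017) was at or under 3 counts in each CTRL library and at 29.7, 13.6 and 2.64 CPM in EXP (adjusted p 0.000408). The EXP mean of Reg3g was at least 116-fold higher than a CTRL floor of 3 counts per library. Its relative Reg1 had at most 2 counts in a control and 26.9, 12.2 and 0.785 CPM in EXP. The EXP mean of Reg1 was at least 100.5-fold higher on the same floor. In both genes EXP 3 lay well below the EXP mean.

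The 2 members with the highest CPM, both of the complement system, did not pass. C4b was at 2083 to 3059 CPM in CTRL and 973 to 3689.6 CPM in EXP (adjusted p 0.977), and the complement inhibitor Serping1 at 2873 to 4388 CPM and 1129 to 3714 CPM (adjusted p 0.322). Cfd (adipsin), a member of this list that adipocytes secrete, was at 0.532, 0.0858, 0.209 and 0.0865 CPM in CTRL and 1.1, 79.9 and 220.1 CPM in EXP, the order of the EXP libraries seen for adipocyte markers below. On the day 4 libraries alone 10 members were called higher, and without CTRL 3 and CTRL 4 9. Markers of neutrophils and macrophages are given with the other cell types below.

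**Figure D2:**
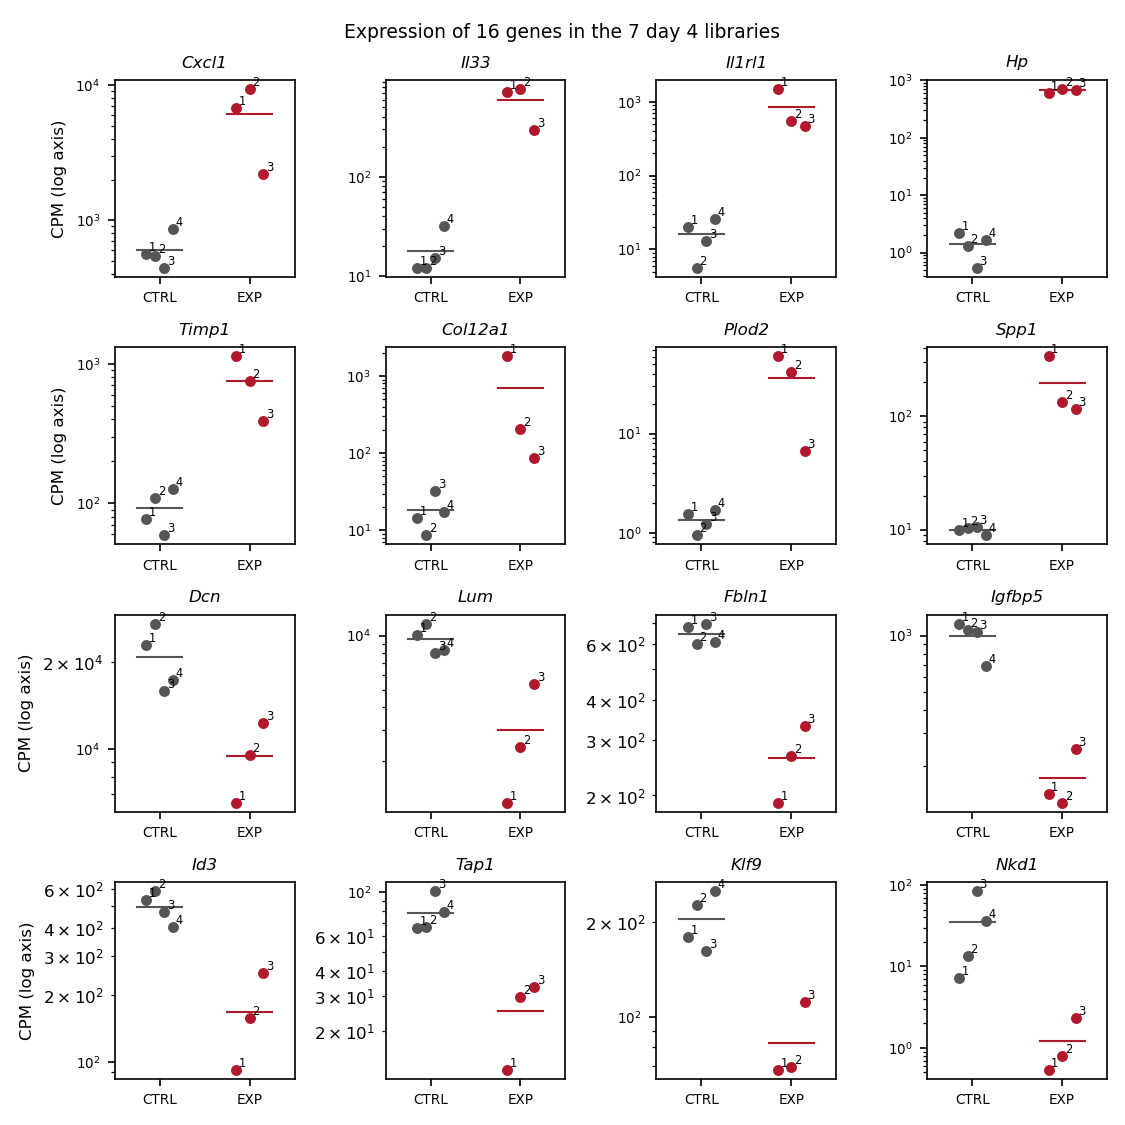
Each panel shows one gene, with CPM on a log axis for CTRL (grey) and EXP (red); points are libraries numbered by replicate and the horizontal line is the group mean. In all 16 genes the EXP libraries lay to one side of the CTRL libraries, and EXP 3 was the EXP library closest to the controls in every gene but Hp.

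Genes of the matrix were called in both directions. Among 16 fibrillar and associated collagens and collagen VI chains, 5 were called higher and 2 lower (31.2% higher and 12.5% lower, median -0.14). Col12a1 (ENSMUSG00000032332), which bridges collagen fibrils and is made in tissues under load, was at 14.3, 8.66, 32.3 and 17.3 CPM in CTRL and 1799, 206 and 86 CPM in EXP (5.26 ± 0.72, adjusted p 0.000244). Col8a1 (ENSMUSG00000068196), a short-chain network collagen, was at 9.86, 4.59, 13.2 and 10.9 CPM and 272, 233 and 50.8 CPM (4.27 ± 0.57, adjusted p 0.000231). In both, all EXP libraries exceeded all controls and EXP 1 was highest. Col14a1, a fibril-associated collagen, rose with EXP 2 highest (214 to 700.2 CPM against 50.2 to 104 CPM, 2.32 ± 0.53). Without EXP 2 its log2 fold change was 1.59 and it was not called (adjusted p 0.0582).

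The major collagens were lower or did not pass. Col1a1 (ENSMUSG00000001506), the main chain of type I collagen, was at 107835, 71535, 101454 and 122583 CPM in CTRL and 17403, 38251 and 82708 CPM in EXP. EXP 3 lay within the range of the controls, and the call (-1.13 ± 0.40, adjusted p 0.045) was lost in 5 of the 7 fits that leave out 1 library. Without CTRL 1, 3 or 4 the adjusted p was 0.0718, 0.0752 and 0.099, and without EXP 1 or 2 it was 0.201 and 0.145. Col3a1 (ENSMUSG00000026043), the type III chain, was at 120728, 79088, 122203 and 104727 CPM and 42549, 72593 and 95337 CPM and did not pass (-0.60 ± 0.34, adjusted p 0.207). Col15a1, a collagen of basement membrane zones, fell from 117 to 189 CPM to 5.02 to 78.4 CPM (-2.04 ± 0.53, adjusted p 0.0119), a call lost without EXP 2 (adjusted p 0.057). Without EXP 2 the list gave 2 higher and 0 lower calls, and without EXP 3 4 and 5. Without CTRL 1, CTRL 3, CTRL 4 or EXP 1 there was 1 lower call, and on the day 4 libraries alone or without CTRL 3 and CTRL 4 there was none, with 3 and 4 higher calls. The other higher calls, Col5a3 (1.38 ± 0.39) and Col6a5 (2.79 ± 0.97), were named to complete the count. Col5a3 was not called without EXP 1 (adjusted p 0.0596) or EXP 2 (0.164), and Col6a5 was called in the fit without EXP 1 alone of the 7 (otherwise 0.0634 to 0.209).

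Enzymes that modify and crosslink collagen divided evenly, with 5 of 21 called higher and 5 lower (23.8% higher and 23.8% lower, median 0.08). Plod2 (ENSMUSG00000032374), a lysyl hydroxylase that sets the type of crosslink, was at 1.55, 0.943, 1.21 and 1.69 CPM in CTRL and 60.3, 41.9 and 6.64 CPM in EXP (4.75 ± 0.59, adjusted p 0.000128). Loxl3 (ENSMUSG00000000693) was at 9.43, 5.7, 12.4 and 9.73 CPM and 336, 139 and 32 CPM (4.18 ± 0.70, adjusted p 0.000834), and its relative Loxl1, also a lysyl oxidase, at 95 to 113 CPM and 156 to 513 CPM (1.80 ± 0.27). These enzymes stood above every control in all EXP libraries. P4ha2, a subunit of the prolyl hydroxylase that stabilises the collagen helix, fell from 304 to 439 CPM to 119.5 to 236 CPM (-1.01 ± 0.23, adjusted p 0.00572). The 5 higher calls remained 5 in number without CTRL 3 and CTRL 4. The lower calls came to 2 there, to 3 without CTRL 3, 3 without CTRL 4, 1 without EXP 1 and 2 without EXP 2, and to 0 on the day 4 libraries alone, where 4 were higher.

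Of 28 proteoglycans, elastic fibre and matricellular genes, 7 were called higher and 5 lower (25% higher and 17.9% lower, median -0.05). Decorin and lumican, small leucine-rich proteoglycans that coat collagen fibrils, were lower. Dcn (ENSMUSG00000019929) was at 22920.3, 27084, 15882 and 17294 CPM in CTRL and 6536, 9570.4 and 12326 CPM in EXP (-1.13 ± 0.22, adjusted p 0.00216). Lum (ENSMUSG00000036446) was at 10136, 11642, 8039 and 8262 CPM and 1177, 2411 and 5387 CPM (-1.67 ± 0.36, adjusted p 0.00349). Fbln1 (ENSMUSG00000006369), an elastic fibre and basement membrane glycoprotein, was at 681, 601, 695 and 611 CPM and 190.0, 266 and 332 CPM (-1.30 ± 0.19, adjusted p 0.000244), with neither group overlapping the other in any of these genes. Ltbp4, which anchors latent TGF-beta and assembles elastin, fell from 151 to 385 CPM to 13.3 to 45.8 CPM (-3.03 ± 0.50).

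In the other direction, Mfap5 (ENSMUSG00000030116), a microfibril protein, was at 100.2, 117, 96.6 and 69.8 CPM in CTRL and 646, 1087 and 211 CPM in EXP (2.76 ± 0.38, adjusted p 0.000244). Spp1 (ENSMUSG00000029304), osteopontin, a matricellular cytokine, was at 9.91, 10.4, 10.6 and 8.91 CPM and 340.0, 133 and 117 CPM (4.30 ± 0.59, adjusted p 0.000253). Sparc, a collagen-binding matricellular protein and the list's member with the highest CPM, was at 40425, 26698, 30540.4 and 39627 CPM and 6222, 19955 and 30255 CPM and did not pass (-0.87 ± 0.42, adjusted p 0.138), except without EXP 3 (0.0316). Without EXP 3 the list gave 10 lower calls, and on the day 4 libraries alone 5 higher and 3 lower. Its counts without CTRL 3 and CTRL 4 were 7 and 5.

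Proteases and their inhibitors leaned to higher levels, with 13 of 23 called higher and 2 lower (56.5% higher and 8.7% lower, median 0.98). Timp1 (ENSMUSG00000001131), an inhibitor of matrix metalloproteinases, was at 77.1, 109, 58.9 and 127 CPM in CTRL and 1132, 747 and 391 CPM in EXP (3.02 ± 0.34, adjusted p 8.78e-05). Mmp13 (ENSMUSG00000050578), an interstitial collagenase, was at 1.26, 2.23, 1.17 and 2.38 CPM and 111, 15.5 and 415 CPM (6.68 ± 0.90, adjusted p 0.000242), here with EXP 3 highest and EXP 2 lowest. The plasminogen activator Plat rose from 87.5 to 151 CPM to 304 to 1164 CPM (2.63 ± 0.38) and the serpin Serpine2, which inhibits such activators, from 50.7 to 85.3 CPM to 241 to 265 CPM (2.00 ± 0.25). Mmp2, a gelatinase and one of the 2 members with the highest CPM, did not pass (6658 to 7368 CPM in CTRL, 3301 to 6563 CPM in EXP, adjusted p 0.0773), except without EXP 3 (0.0123). The 2 members called lower were Mmp14 and Adamts4, named because of their count (-1.97 ± 0.50 and -1.37 ± 0.36). Mmp14 was not called without EXP 1 (adjusted p 0.0649), nor Adamts4 without EXP 1 (0.0725) or EXP 2 (0.0509). There were 0 such calls without EXP 1, 1 without EXP 2 and 5 without EXP 3. The list had 9 higher and 1 lower calls on the day 4 libraries alone, and 12 and 1 without CTRL 3 and CTRL 4.

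The cell cycle was examined with a list of mitosis genes and a list of DNA replication genes. All 25 tested mitosis genes were called higher (median 3.16), and 14 of 27 DNA replication genes (51.9%, median 1.15), against 12.8% of all genes. Ccnb2 (ENSMUSG00000032218), a B-type cyclin of mitotic entry, was at 5.08, 4.03, 2.14 and 1.25 CPM in CTRL and 80.8, 26.2 and 13.8 CPM in EXP (3.69 ± 0.65, adjusted p 0.00119). Cdk1 (ENSMUSG00000019942), its kinase partner, was at 4.83, 1.33, 0.964 and 0.952 CPM and 46.6, 16.8 and 9.96 CPM (3.61 ± 0.73, adjusted p 0.00292). Kif20a (ENSMUSG00000003779), a kinesin of cytokinesis, was at 2.85, 2.27, 1.34 and 1.47 CPM and 43.2, 9.96 and 8.1 CPM (3.37 ± 0.62, adjusted p 0.00145). In each, EXP 1 stood well above EXP 2 and EXP 3, which stood above all controls.

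DNA replication genes followed with smaller differences. Tk1, the S-phase thymidine kinase, rose from 0.922 to 2.95 CPM to 5.07 to 28.7 CPM (3.08 ± 0.49, adjusted p 0.000421), and Gins2, a part of the replicative helicase, from 1.17 to 3.09 CPM to 4.32 to 17.3 CPM (2.25 ± 0.40). Pcna, the polymerase clamp and one of the 2 members of the replication list with the highest CPM, did not pass (27.9 to 43.4 CPM in CTRL, 25.5 to 32.5 CPM in EXP, -0.19 ± 0.18). EXP 1 weighed on both lists: without it 8 mitosis and 3 replication genes were called, and without CTRL 4 21 and 9. On the day 4 libraries alone the counts were 15 and 5, and without CTRL 3 and CTRL 4 6 and 4.

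The promoters of the mitosis genes are shown because cell cycle promoters are known for a cell cycle homology region and for CCAAT boxes. The 250 bases upstream of the annotated start (RefSeq, GRCm38.p6) were searched for the letters TTTGAA, or the less common TTCGAA, of the homology region. On either strand these letters occurred in 9 of 22 mitosis genes with a promoter in the table (40.9%) and in 19.6% of all 27025 genes. CCAAT on either strand occurred in 19 of the 22 (86.4%) and in 37.5% of all genes. The 2 called members with the smallest p whose promoter held the first motif were Ccnb2 (chr9:70421555-70421741, minus strand) and Cdk1 (chr10:69352913-69353140, minus strand). Capitals mark matches to these motifs on either strand, and each stretch runs 5′ to 3′ and ends at the base before the start.
Ccnb2: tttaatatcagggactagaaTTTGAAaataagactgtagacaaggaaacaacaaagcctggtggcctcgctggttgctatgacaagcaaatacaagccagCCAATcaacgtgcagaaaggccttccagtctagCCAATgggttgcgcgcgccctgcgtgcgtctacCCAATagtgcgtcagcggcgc
Cdk1: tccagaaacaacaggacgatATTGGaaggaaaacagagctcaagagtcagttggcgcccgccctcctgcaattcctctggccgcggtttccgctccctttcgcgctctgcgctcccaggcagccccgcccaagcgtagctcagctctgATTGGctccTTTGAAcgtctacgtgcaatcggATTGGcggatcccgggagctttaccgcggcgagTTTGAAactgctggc
Both hold 3 CCAAT boxes counted over both strands. A match to these letters is a description of the sequence.

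Genes of cholesterol synthesis and uptake, which SREBP transcription factors switch on when membrane cholesterol is short, gave 17 higher and 0 lower calls among 24 (70.8% higher and 0% lower, median 1.36). Mvd (ENSMUSG00000006517), a decarboxylase of the mevalonate pathway, was at 5.08, 2.83, 2.93 and 3.29 CPM in CTRL and 14.2, 20.5 and 8.92 CPM in EXP (2.04 ± 0.40, adjusted p 0.00202). Lss (ENSMUSG00000033105), lanosterol synthase, which closes the sterol rings, was at 4.93, 4.5, 9.13 and 3.33 CPM and 28.4, 27.1 and 13 CPM (2.06 ± 0.42, adjusted p 0.00276). In both, all EXP libraries exceeded all controls, and EXP 3 was the lowest of them. Hmgcs1 (ENSMUSG00000093930), an early enzyme of the mevalonate pathway, was at 120.1, 78.2, 57.1 and 62.8 CPM and 125, 267 and 140.0 CPM (1.16 ± 0.34, adjusted p 0.0188), lowest in EXP 1 and just above CTRL 1 there. Mvd and Hmgcs1 were highest in EXP 2, where the mitosis genes above were highest in EXP 1. The Hmgcs1 call was lost without CTRL 3 (adjusted p 0.0584), CTRL 4 (0.0534) and EXP 2 (0.174).

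Not every member passed. Insig1, which retains SREBP in the endoplasmic reticulum and is itself a target, was at 266, 227, 74.2 and 125 CPM in CTRL and 89.5, 249.8 and 160.5 CPM in EXP (-0.06 ± 0.39, adjusted p 0.935). The higher calls numbered 14 on the day 4 libraries alone, 7 without CTRL 3 and CTRL 4 and 11 without EXP 2. CCAAT on either strand occurred in all 16 of the members with a promoter in the table. The sterol element TCACNCCAC was found in 1 of these 16, Hmgcs1, and in 1.23% of all promoters. The Hmgcs1 stretch (RefSeq, GRCm38.p6, chr13:119690101-119690330, plus strand) is shown with that element and the ATTGG matches in capitals, ending 21 bases before the start.
Hmgcs1: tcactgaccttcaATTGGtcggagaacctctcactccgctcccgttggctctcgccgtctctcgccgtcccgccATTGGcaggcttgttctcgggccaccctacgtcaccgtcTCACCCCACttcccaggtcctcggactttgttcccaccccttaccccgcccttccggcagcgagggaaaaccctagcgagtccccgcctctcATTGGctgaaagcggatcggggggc
The absence of the letters from the other promoters says only that they are not in this window.

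Fatty acid synthesis and desaturation genes gave 8 higher calls of 15 and 0 lower (53.3% higher and 0% lower, median 0.68). Acly (ENSMUSG00000020917), which makes cytosolic acetyl-CoA, was at 128, 87.6, 99.5 and 97.5 CPM in CTRL and 303, 340.4 and 173 CPM in EXP (1.40 ± 0.21, adjusted p 0.000301), and Fads2, a desaturase, rose from 4.41 to 7.69 CPM to 16.6 to 71.4 CPM (2.86 ± 0.43). The count was 4 without CTRL 4, 4 without EXP 1, 5 without EXP 2, 2 on day 4 alone and 3 without CTRL 3 and CTRL 4. Adipocytes express these genes too, and adipocyte markers differed among the EXP libraries as given below, with EXP 3 highest. Their part in this result was not tested.

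Lists of energy metabolism and ribosome production held smaller differences. Of 23 glycolysis and hypoxia genes, 13 were called higher and 0 lower (56.5% higher and 0% lower, median 0.87). Pkm (ENSMUSG00000032294), pyruvate kinase, was at 317, 286, 357 and 298 CPM in CTRL and 1405, 785 and 597 CPM in EXP (1.56 ± 0.25, adjusted p 0.000529). Eno1 (ENSMUSG00000063524), enolase, was at 43.7, 49.2, 52.3 and 39.8 CPM and 219, 149 and 66.5 CPM (1.65 ± 0.26, adjusted p 0.000466). The called members were enzymes and transporters of glycolysis and Adm, the vasodilator peptide adrenomedullin. Ndrg1, a hypoxia-induced gene and one of the 2 members with the highest CPM, was at 639 to 1116 CPM and 307 to 811 CPM and did not pass (-0.61 ± 0.26, adjusted p 0.0994), except without EXP 3 (0.0149). The higher calls came to 9 on the day 4 libraries alone and 10 without CTRL 3 and CTRL 4. Near-identical pseudogenes exist for several glycolytic enzymes, so how the authors' counting shared such reads bears on their levels.

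Ribosome biogenesis factors gave 11 higher calls of 22 (50% higher and 0% lower, median 0.68). Examples were Rrp9, a component of the small nucleolar particles that process rRNA (10.3 to 17 CPM and 27.1 to 28.4 CPM, 1.01 ± 0.20), and Bop1, needed for the large subunit (18.7 to 26 CPM and 39.5 to 45.8 CPM, 0.85 ± 0.17). Respiratory chain subunits gave 9 of 23 (39.1% higher and 0% lower, median 0.44), among them Uqcrc1 of complex III (126 to 137 CPM and 180.2 to 228 CPM, 0.66 ± 0.14). With only the day 4 libraries 4 ribosome and 1 respiratory member were called, and without CTRL 3 and CTRL 4 6 and 1. Respiratory calls came to 5 without CTRL 3, 5 without CTRL 4, 4 without EXP 1 and 2 without EXP 2, and ribosome calls to 7 without EXP 1.

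Amino acid and one-carbon genes gave 5 higher and 2 lower calls of 20 (25% higher and 10% lower, median 0.02). Aldh1l1 (ENSMUSG00000030088), which oxidises formyltetrahydrofolate, had the smallest p of all genes: 2.47, 1.03, 0.67 and 1.95 CPM in CTRL and 29.6, 26.5 and 16.9 CPM in EXP (4.00 ± 0.36, adjusted p 5.98e-06). It was called in each of the 7 fits that leave out 1 day 4 library. Mthfd1l, a mitochondrial enzyme of the same folate cycle, rose from 2.79 to 5.62 CPM to 9.35 to 23.3 CPM (1.90 ± 0.34). On the day 4 libraries alone the list had 2 higher and 0 lower calls, and without CTRL 3 and CTRL 4 3 and 1. Its lower calls came to 0 without CTRL 2, 0 without EXP 1, 1 without EXP 2 and 5 without EXP 3.

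Contractile and myofibroblast genes gave 8 higher and 0 lower calls of 18 (44.4% higher and 0% lower, median 0.90). Zyx (ENSMUSG00000029860), zyxin, a focal adhesion protein that gathers on tensed actin fibres, was at 31.7, 40.8, 37.3 and 40.7 CPM in CTRL and 304, 175 and 61.5 CPM in EXP (2.26 ± 0.38, adjusted p 0.000697). Acta2 (ENSMUSG00000035783), smooth muscle actin, the defining myofibroblast gene, was at 6.28, 5.79, 2.39 and 4.63 CPM and 32.8, 18.4 and 15.5 CPM (2.22 ± 0.68, adjusted p 0.0265), above every control. It was not called without CTRL 3 (adjusted p 0.0747), CTRL 4 (0.0591), EXP 1 (0.127) or EXP 2 (0.0557). The list held 5, 5 and 4 calls without CTRL 3, EXP 1 and EXP 2. On the day 4 libraries alone 5 were called and without CTRL 3 and CTRL 4 4.

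Targets of YAP and TAZ, the coactivators that respond to stiffness and stretch, gave 5 higher and 2 lower calls of 20 (25% higher and 10% lower, median -0.22). Ccn1 (ENSMUSG00000028195), among the best known of them, was lower, at 2796, 3606, 3742 and 2907 CPM in CTRL and 756, 1249 and 1761 CPM in EXP (-1.38 ± 0.27, adjusted p 0.00216). F3 (ENSMUSG00000028128), tissue factor, was higher, at 71.5, 33.8, 28.3 and 38.5 CPM and 390.5, 255 and 152 CPM (2.63 ± 0.50, adjusted p 0.00204). EXP and CTRL did not overlap in either gene. Lower calls numbered 4 without CTRL 1 and 4 without EXP 3, and higher calls 2 without EXP 2. The list had 4 higher and 1 lower calls on the day 4 libraries alone, and 2 and 2 without CTRL 3 and CTRL 4. Its share of lower calls was near that of all genes (9.66%). Integrins and mechanosensors gave 4 higher and 0 lower calls of 21 (19% higher and 0% lower, median -0.00), including Itga5, the fibronectin receptor chain (186 to 266 CPM and 370.1 to 654 CPM, 1.28 ± 0.30), and the hyaluronan receptor Cd44 (204 to 311 CPM and 378 to 459.8 CPM, 0.81 ± 0.19). Their share of higher calls lay near the 12.8% of all genes, and they numbered 2 on the day 4 libraries alone and 3 without CTRL 3 and CTRL 4.

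**Figure D3:**
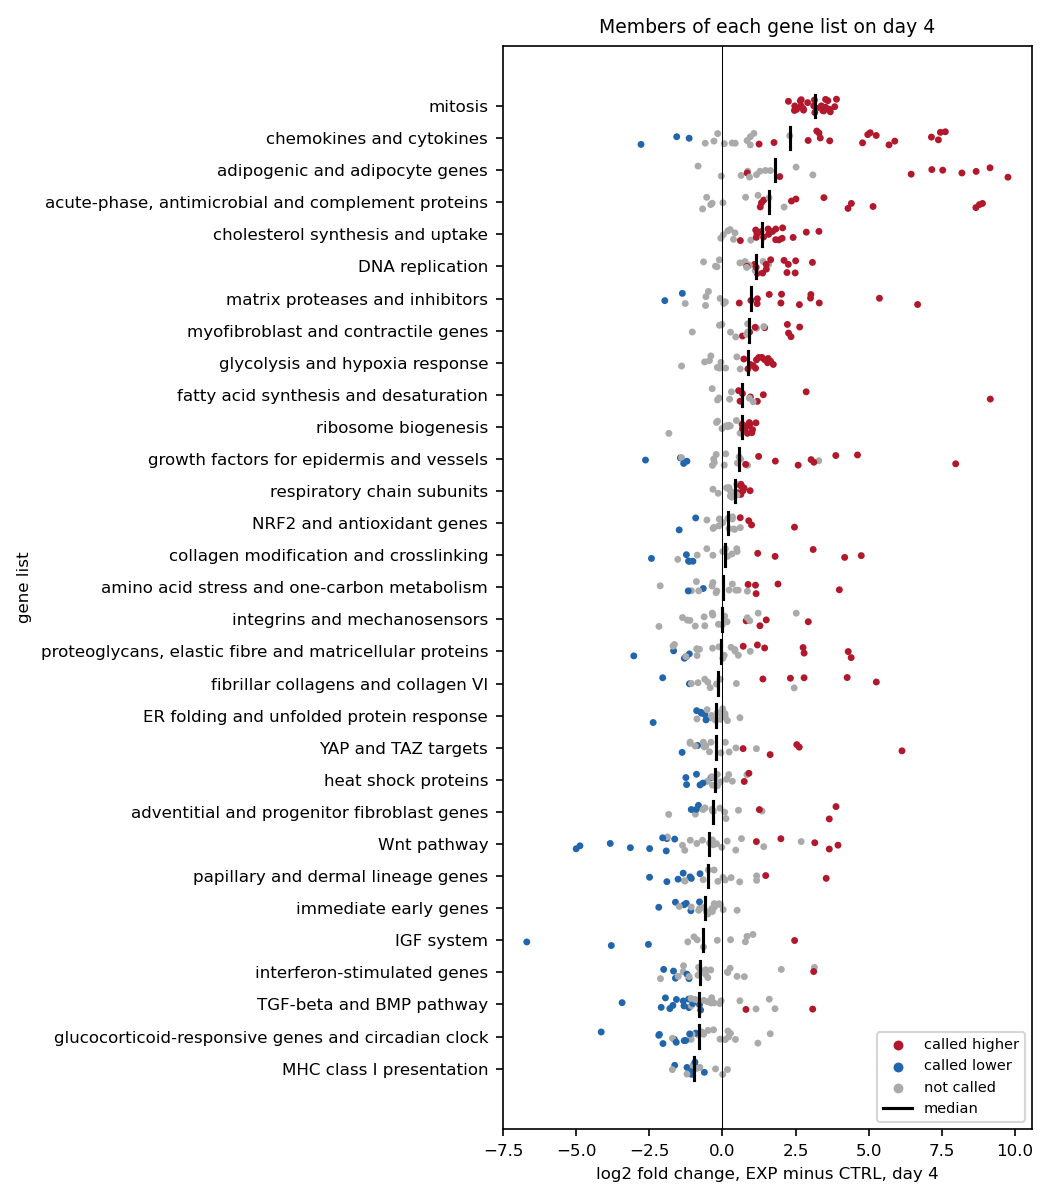
Each point is a tested member of a gene list, placed by its log2 fold change of EXP against CTRL on day 4 and coloured by its call; the black bar is the list's median. Lists run from class I presentation (median -0.98) at the bottom to mitosis (median 3.16) at the top.

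Several signalling pathways held more lower than higher calls. Of 29 TGF-beta and BMP genes, 2 were called higher and 13 lower (6.9% higher and 44.8% lower, median -0.78), against 9.66% lower among all genes. Id3 (ENSMUSG00000007872), an immediate BMP target, was at 531, 585, 472 and 405 CPM in CTRL and 92.3, 158 and 252 CPM in EXP (-1.57 ± 0.27, adjusted p 0.000835). The related targets Id1 and Id2 had log2 fold changes of -1.95 ± 0.43 and -1.31 ± 0.31. Nog (ENSMUSG00000048616), an antagonist that BMP signalling induces, was at 0.87, 2.4, 2.05 and 2.73 CPM and 0.161, 0.139 and 0.25 CPM (-3.43 ± 0.64, adjusted p 0.00155). Target and antagonist were thus both lower, as was the ligand Bmp4 (-2.09 ± 0.55). Id1, Id2 and Bmp4 were named after their values were seen, and Bmp4 was not called without EXP 2 (adjusted p 0.0631). Inhba (ENSMUSG00000041324), the activin A subunit, went the other way (9.91, 17.6, 25.6 and 13.9 CPM and 287, 37.2 and 103 CPM, 3.09 ± 0.57, adjusted p 0.00164). There were 7 lower calls without EXP 1, 6 without EXP 2, 7 on the day 4 libraries alone and 7 without CTRL 3 and CTRL 4. The last 2 fits gave 2 higher calls and 1 higher call. The other higher call, Fst, a binding protein of activin, was called in the fit without CTRL 4 alone of the 7 (otherwise adjusted p 0.0578 to 0.121).

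In the Wnt pathway 5 of 31 were called higher and 9 lower (16.1% higher and 29% lower, median -0.44). The lower calls with the smallest p were inhibitors that canonical Wnt signalling induces. Nkd1 (ENSMUSG00000031661) was at 7.15, 13.4, 84.2 and 36.6 CPM in CTRL and 0.536, 0.798 and 2.32 CPM in EXP (-4.87 ± 0.95, adjusted p 0.00236), and Notum (ENSMUSG00000042988), a deacylase of Wnt proteins, at 0.58, 1.54, 5.78 and 3.98 CPM and 0.0268, 0.0347 and 0.214 CPM (-5.00 ± 1.00, adjusted p 0.00232). In both, CTRL 3 and CTRL 4 were well above CTRL 1 and CTRL 2, and without CTRL 3 and CTRL 4 the log2 fold changes were -3.09 and -3.52 (adjusted p 0.0285 and 0.0379). Rspo1, a secreted enhancer of Wnt signalling, fell from 68 to 118 CPM to 0.724 to 24.5 CPM (-3.15 ± 0.68). The ligand Wnt2 rose from 1.29 to 2.66 CPM to 12.8 to 49.5 CPM (3.65 ± 0.85) but was not called without EXP 2 (adjusted p 0.0547). Higher calls came to 3 without EXP 1, 2 without EXP 2 and 0 without CTRL 3 and CTRL 4, and lower calls there to 4. The day 4 libraries alone gave 3 higher and 4 lower calls.

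The IGF system gave 1 higher and 3 lower calls of 13 (7.69% higher and 23.1% lower, median -0.65). Igfbp5 (ENSMUSG00000026185), a binding protein that retains IGFs in the matrix, was at 1159, 1074, 1045 and 691 CPM in CTRL and 142, 127 and 245 CPM in EXP (-2.53 ± 0.37, adjusted p 0.000291). Igfbp4 changed in the opposite direction (49 to 107 CPM and 285 to 649 CPM, 2.47 ± 0.55). The list gave 1 higher and 2 lower calls on the day 4 libraries alone, and 1 and 2 without CTRL 3 and CTRL 4. Growth factors for epidermis and vessels gave 9 higher and 4 lower calls of 25 (36% higher and 16% lower, median 0.57). Ereg (ENSMUSG00000029377), an EGF receptor ligand, was at 3.87, 3.6, 5.91 and 20.9 CPM and 525, 61.7 and 46.6 CPM (4.62 ± 0.90, adjusted p 0.00232). Fgf23, a hormone normally made in bone, was at 0, 0, 0.0419 and 0.649 CPM in CTRL and 75.6, 51.3 and 9.14 CPM in EXP (7.98 ± 1.24). Vegfd, a ligand for lymphatic vessels, rose from 2.27 to 6.79 CPM to 11.1 to 46.4 CPM (3.03 ± 0.50). Without EXP 1 4 higher and 1 lower calls were made, and without EXP 2 0 lower. The day 4 libraries alone gave 6 higher and 2 lower calls of growth factors, and without CTRL 3 and CTRL 4 there were 6 and 0.

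Antigen presentation and interferon-stimulated genes held mostly lower calls. Class I presentation gave 8 lower and 0 higher calls of 16 (0% higher and 50% lower, median -0.98). Tap1 (ENSMUSG00000037321), a peptide transporter subunit, was at 65.6, 66.4, 101 and 79.2 CPM in CTRL and 12.8, 29.6 and 33.2 CPM in EXP (-1.63 ± 0.31, adjusted p 0.00155), and its partner Tap2 fell from 87.8 to 115 CPM to 29.6 to 58.6 CPM (-1.06 ± 0.21). B2m (ENSMUSG00000060802), the light chain of all class I molecules, was at 1637, 1975, 1716 and 1978 CPM and 303, 1209.9 and 1221 CPM (adjusted p 0.0379). EXP 1 was the lowest library in each. The B2m call was lost without CTRL 2 (adjusted p 0.0644), CTRL 3 (0.0579), CTRL 4 (0.0737) or EXP 1 (0.147), and the list held 3 calls without EXP 1, 2 on the day 4 libraries alone and 3 without CTRL 3 and CTRL 4. Class I heavy chain genes are near-identical copies of each other, and their counts are uncertain.

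Among 25 interferon-stimulated genes, 5 were called lower and 1 higher (4% higher and 20% lower, median -0.76). Irf1 (ENSMUSG00000018899), a transcription factor that interferon gamma induces, was at 362, 389.5, 356 and 280.4 CPM in CTRL and 81.7, 67.5 and 193 CPM in EXP (-1.61 ± 0.28, adjusted p 0.000967), and the GTPase Gbp7 fell from 35.8 to 62 CPM to 11.3 to 20.8 CPM (-1.67 ± 0.31). Oas1a, which senses viral RNA, was the member called higher (0.214 to 2.01 CPM and 3.28 to 19.7 CPM, 3.12 ± 0.79), though not without EXP 2 (adjusted p 0.123). Most members did not pass. The list's mean log2 CPM minus the CTRL mean was -1.52, 0.34 and -0.30 in EXP 1, 2 and 3. Without EXP 1, 3 were called lower. The list held 3 lower and 0 higher calls on the day 4 libraries alone, and 3 and 1 without CTRL 3 and CTRL 4.

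Immediate early genes, induced within minutes by stress, serum or tissue dissociation, gave 6 lower and 0 higher calls of 22 (0% higher and 27.3% lower, median -0.59). Nr4a1 (ENSMUSG00000023034), an orphan nuclear receptor, was at 1408, 1317, 1620.3 and 1161 CPM in CTRL and 424, 320.2 and 612 CPM in EXP (-1.61 ± 0.30, adjusted p 0.00136). Fosl2 (ENSMUSG00000029135), an AP-1 subunit, was at 89.1, 95.1, 64.3 and 72.1 CPM and 38.1, 27.3 and 31.6 CPM (-1.31 ± 0.24, adjusted p 0.00125). The lower calls came to 3 on the day 4 libraries alone and 4 without CTRL 3 and CTRL 4. Glucocorticoid-responsive and clock genes gave 11 lower and 0 higher calls of 28 (0% higher and 39.3% lower, median -0.80). Klf9 (ENSMUSG00000033863), a glucocorticoid target, was at 179.9, 227, 161 and 251 CPM and 67.7, 69.1 and 112 CPM (-1.31 ± 0.24, adjusted p 0.00138), and Per1, a clock gene that glucocorticoids also induce, fell from 9.48 to 18.2 CPM to 2.85 to 5.14 CPM (-1.64 ± 0.32). Cebpd (ENSMUSG00000071637) was at 56.5, 138, 405 and 480.0 CPM in CTRL and 8.74, 10.4 and 26.7 CPM in EXP (-4.15 ± 0.85), with the controls divided as described. Time of day and dissociation time are not in the labels, and their part in these genes was not tested. Lower calls of the glucocorticoid and clock list numbered 5 without EXP 1, 6 without EXP 2 and 5 on the day 4 libraries alone. Without CTRL 3 and CTRL 4 it had 5 lower calls and 1 higher.

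Of 19 heat shock genes 2 were called higher (10.5%, against 12.8% of all genes) and 6 lower (31.6%, against 9.66%). The higher calls were the mitochondrial pair Hspd1 (0.91 ± 0.17) and Hspe1 (0.75 ± 0.25, named because of the count and not called without CTRL 3, CTRL 4, EXP 1 or EXP 2, with adjusted p 0.086 to 0.182). The lower calls included the cytosolic cochaperones Bag3 (192 to 229 CPM and 94.1 to 149.6 CPM, -0.89 ± 0.16) and Dnaja1 (-0.77 ± 0.17). Genes of endoplasmic reticulum folding gave 6 lower and 0 higher calls of 22 (0% higher and 27.3% lower, median -0.21), among them Xbp1, a transcription factor of the unfolded protein response (332 to 387 CPM and 159 to 286 CPM, -0.71 ± 0.20). The Xbp1 call was lost without EXP 1 (adjusted p 0.109). Hspa5, the chaperone that also holds the stress sensors of this response inactive, did not pass (-0.24 ± 0.20, adjusted p 0.41). Lower calls of the reticulum list fell to 3 without CTRL 1, 3 without CTRL 2, 0 without EXP 1 and 2 without EXP 2, to 0 on the day 4 libraries alone and to 3 without CTRL 3 and CTRL 4. Those of the heat shock list fell to 2 and 3 without EXP 1 and EXP 2, and its higher calls to 1 without CTRL 3, EXP 1 or EXP 2. The heat shock list had 1 higher and 2 lower calls on the day 4 libraries alone, and 2 and 2 without CTRL 3 and CTRL 4. NRF2 and antioxidant genes gave 4 higher and 2 lower calls of 20 (20% and 10%), 1 and 0 on the day 4 libraries alone, and 0 and 1 without CTRL 3 and CTRL 4. Leaving out a library moved their higher calls to 2 (CTRL 1), 0 (CTRL 3), 2 (EXP 1) and 1 (EXP 2), and their lower calls to 1 (CTRL 4), 0 (EXP 1) and 1 (EXP 2).

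Papillary and dermal lineage genes gave 7 lower and 2 higher calls of 21 (9.52% higher and 33.3% lower, median -0.48). Lrig1 (ENSMUSG00000030029), a marker of the upper dermis lineage, was at 30.1, 41, 34.3 and 47.1 CPM in CTRL and 15.3, 19.3 and 20.2 CPM in EXP (-1.06 ± 0.23, adjusted p 0.00417). Ntn1 (ENSMUSG00000020902), netrin, was at 71.3, 109, 77.2 and 96.3 CPM and 26, 40.4 and 38.3 CPM (-1.34 ± 0.24, adjusted p 0.000954). Adventitial and progenitor genes gave 3 higher and 3 lower calls of 18 (16.7% higher and 16.7% lower, median -0.32), among them Anxa3 (3.16 to 11.9 CPM and 49.4 to 196 CPM, 3.88 ± 0.72). Both shares lay near those of all genes (12.8% and 9.66%). Lower calls of the papillary list fell to 3 without EXP 1 and 3 without EXP 2. The adventitial list lost all lower calls without EXP 1 and on the day 4 libraries alone, had 1 without CTRL 2, and had 1 higher call without EXP 2. Higher calls of the papillary list fell to 0 without EXP 1 and to 1 without CTRL 2, CTRL 3, CTRL 4 or EXP 2. The papillary list had 0 higher and 4 lower calls on the day 4 libraries alone, and 1 and 2 without CTRL 3 and CTRL 4. The adventitial list had 2 and 1 higher calls in those fits, and no lower call without CTRL 3 and CTRL 4.

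Adipocyte genes differed most among the EXP libraries. Of 20 adipogenic and adipocyte genes 9 were called higher and 0 lower (45% higher and 0% lower, median 1.80). Fabp4 (ENSMUSG00000062515), the fatty acid binding protein of adipocytes and some endothelia, was at 1.11, 1.33, 0.251 and 1.34 CPM in CTRL and 41.8, 64.1 and 160.2 CPM in EXP (6.46 ± 1.06, adjusted p 0.000755). Adipoq (ENSMUSG00000022878), adiponectin, was at 0.483, 0, 0.0419 and 0.13 CPM and 0, 16.8 and 52.9 CPM (7.16 ± 1.60, adjusted p 0.00508). Cidec (ENSMUSG00000030278), a lipid droplet protein, was at or under 3 counts in each control and at 0.617, 13.7 and 59.3 CPM in EXP. The EXP mean, carried mostly by EXP 3, was at least 186-fold higher than the CTRL floor of 3 counts per library. EXP 1 lay far below that mean. EXP 3 was highest and EXP 1 lowest in all 3 genes, the reverse of the mitosis list, and Adipoq was at 0 in EXP 1. With only the day 4 libraries 5 were called and without CTRL 3 and CTRL 4 2. The major urinary protein genes Mup7 and Mup22, near-identical copies whose counts are uncertain, were at 0.0805, 18.3 and 102 CPM and at 0.161, 39.3 and 145 CPM in EXP, in the same order. The Mup7 call was lost without EXP 3 (adjusted p 0.0541). Summed over the 10 mature adipocyte markers, CTRL reached 2.93 to 10.4 CPM and EXP 47.1, 236 and 689.6 CPM. Most of the sum in EXP 1 was Fabp4 (41.8 CPM), so it rests on 1 gene that is not confined to adipocytes.

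Markers of the other cell types were summed in the same way. Summed CPM of 14 keratinocyte genes were 13.3 to 39.6 in CTRL and 4.56, 36.2 and 7.57 in EXP, where CTRL 2 and EXP 2 stood highest. Of 12 endothelial genes (summed 49.9 to 78.8 and 37.8, 94.3 and 86.8), 2 were called higher, Kdr (0 to 0.387 CPM and 0.992 to 2.57 CPM, 3.11 ± 0.90) and Emcn. Emcn was lost without EXP 2 (adjusted p 0.203) or any CTRL library (0.0553 to 0.0919), and Kdr was not called without CTRL 4 (adjusted p 0.0514) or EXP 2 (0.0702). Of 14 macrophage and monocyte genes (summed 126 to 164 CPM in CTRL and 76.7, 133 and 182 CPM in EXP) 8 could be tested, with Cd14, which fibroblasts also express, called higher (11.6 to 24.9 CPM and 36.1 to 51.6 CPM, 1.34 ± 0.33) and Cd74 lower, the latter not without EXP 1 (adjusted p 0.0953) or EXP 3 (0.0568). The 8 neutrophil genes summed to 0.858 to 4.4 CPM in CTRL and 5.98, 2.71 and 7.85 CPM in EXP, and S100a8 was the member called (0, 0, 0.0419 and 0 CPM and 2.31, 0 and 1.14 CPM). Members of the macrophage and neutrophil lists at 0 in every CTRL library included Ptprc, Adgre1, Retnlg and Cxcr2, and Retnlg and Cxcr2 were at 0 in every EXP library too. No member of the macrophage and monocyte list was at 0 in all day 4 libraries.

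Cd3e, a T cell receptor component, was at 2.47, 1.8, 0.293 and 6.92 CPM in CTRL and 28.9, 13.9 and 13 CPM in EXP (2.69 ± 0.70, adjusted p 0.0115), a call lost without EXP 1 (adjusted p 0.0669). Its complex partners Cd3d and Cd3g reached at most 0.129 CPM in any of the 7 libraries, and Cd8a was at 0 in all. The other T cell gene called, Trdc, lay at 0 to 0.129 CPM in CTRL and 0.464 to 0.763 CPM in EXP and was not called without CTRL 1, CTRL 3, CTRL 4, EXP 1 or EXP 2 (adjusted p 0.0697 to 0.0902). The T cell list summed to 72.7 to 127 CPM in CTRL and 111, 90.6 and 84.8 CPM in EXP, most of it Thy1, which fibroblasts also express. Melanocyte Tyrp1 was at 1.64, 0.557, 0.586 and 0.476 CPM in CTRL and 0 in EXP, at least 8.39-fold below the CTRL mean at a floor of 3 counts per library. The pericyte and smooth muscle list was called in Acta2 alone and the keratinocyte list in Trp63 alone (lower, -2.20 ± 0.51). In the skeletal muscle list Acta1 alone was called (higher). Acta1 was at 0.0838 CPM in CTRL 3 and had no counts in the other controls, so no fold is given. The Schwann and mast cell lists had no call, with 7 of 8 and 0 of 7 genes tested. A part of any of these cell types in the results above was not tested.

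**Figure D4:**
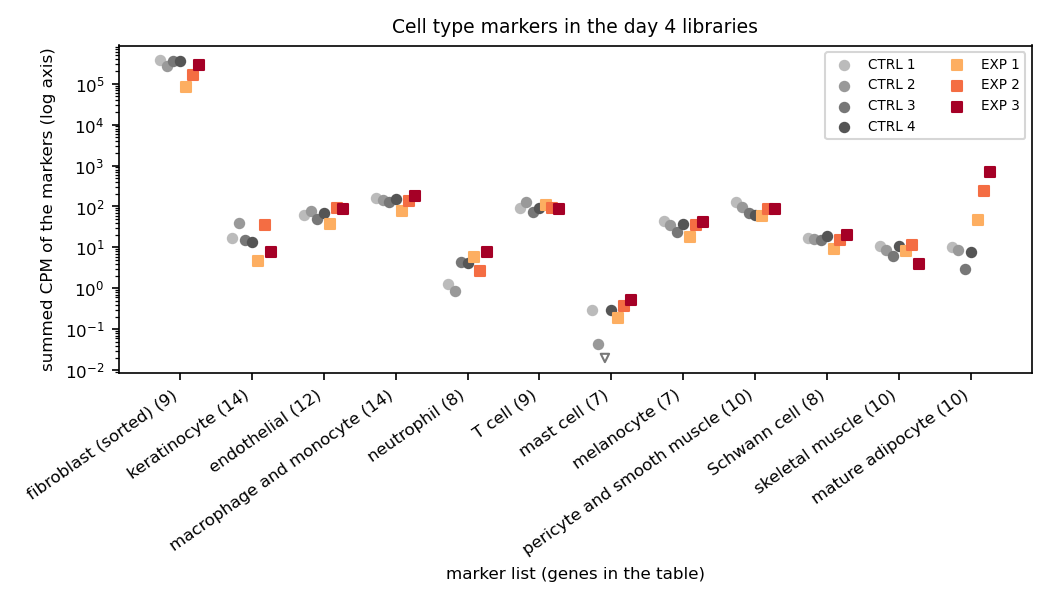
Summed CPM (log axis) of the markers of 12 cell types in each day 4 library; circles are CTRL, squares EXP, and an open triangle marks a sum of 0. Mature adipocyte markers reached 47.1, 236 and 690 CPM in EXP 1, 2 and 3 against at most 10.4 CPM in CTRL, while the other non-fibroblast lists overlapped between the groups. Most of the adipocyte sum in EXP 1 was Fabp4, which some endothelia also express.

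Outside the lists, the largest rises among clearly expressed genes included Lmcd1 (ENSMUSG00000057604), a cofactor of calcineurin signalling in muscle, at 0.822, 0.472, 0.419 and 0.476 CPM in CTRL and 461, 58.6 and 28.9 CPM in EXP (8.39 ± 0.94, adjusted p 8.78e-05). Car4 (ENSMUSG00000000805), a membrane-bound carbonic anhydrase, was at 0, 0, 0 and 0.216 CPM and 317, 15.2 and 22.6 CPM (10.95 ± 1.56, adjusted p 0.000293). Serpinb2 (ENSMUSG00000062345), an inhibitor of plasminogen activators, was at 5.8, 3.9, 0.0419 and 0 CPM and 1036, 1259 and 42.9 CPM (8.33 ± 1.67, adjusted p 0.0027). In Lmcd1 and Car4 EXP 1 was many-fold above EXP 2 and EXP 3, and in Serpinb2 EXP 3 was lowest by far. The joint lubricant Prg4 (ENSMUSG00000006014) was at 18.1, 9.13, 8.38 and 13.3 CPM and 422, 656 and 186 CPM (5.11 ± 0.59, adjusted p 9.93e-05). Prg4 and Serpinb2 each share exon sequence with a neighbouring gene (Tpr and Serpinb10), and whether the authors' counting used strand is not stated.

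Among the smallest p-values were also the HDL receptor Scarb1 (8.13 to 12.9 CPM and 33.6 to 36.6 CPM, 1.76 ± 0.21), the lysosomal protease Lgmn (35.5 to 72.6 CPM and 169 to 306 CPM, 2.23 ± 0.26) and Csgalnact1, which starts chondroitin sulfate chains (5.79 to 8.88 CPM and 35.8 to 183 CPM, 3.69 ± 0.43). On the lower side were Mamdc2 (ENSMUSG00000033207) (44.9, 49.1, 88.6 and 57.5 CPM and 3.73, 6.59 and 13.2 CPM, -2.94 ± 0.43, adjusted p 0.000291), C1qtnf7 (ENSMUSG00000061535), an adipokine of the C1q family (140.3, 193, 139 and 96.9 CPM and 11.2, 29.9 and 34.8 CPM, -2.49 ± 0.38, adjusted p 0.000348), and Man1a, a Golgi mannosidase (495 to 709 CPM and 160.3 to 259 CPM, -1.45 ± 0.22). All of these were called in each fit that leaves out 1 day 4 library, on the day 4 libraries alone and without CTRL 3 and CTRL 4.

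The day 4 effect was set against the effects on days 1 and 2 by contrasts of the log2 fold changes. Against day 1, 2341 of 17554 genes (13.3%) differed, 1432 toward higher and 909 toward lower values on day 4. The total was 1524 without CTRL 4, 1275 without EXP 1 and 1307 without EXP 2. Of these, 700 were called higher on day 4, and 202 of the 700 had been called lower on day 1. Another 406 were called lower on day 4, 50 of which had been called higher on day 1. Of the 25 mitosis genes, 25 differed, and the list's median log2 fold change was -3.55 on day 1, 2.28 on day 2 and 3.16 on day 4. Cdca3, a mitotic regulator, went from -4.77 on day 1 to 3.84 ± 0.73 on day 4 (adjusted p of the difference 0.000243).

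Against day 2, 0 of 17554 genes (0%) differed by edgeR at an adjusted p under 0.05, with 1174 at an unadjusted p under 0.05. DESeq2 called 34 and limma voom 16, and edgeR without EXP 3 called 67. The genes with the smallest p for a day 4 effect unlike that of both earlier days included Mfap5 (log2 fold change -1.09 on day 1, 0.17 on day 2 and 2.76 ± 0.38 on day 4), the kinase Ikbke of innate immune signalling (-0.77, -0.43 and 1.37 ± 0.27) and Itgb7, an integrin chain best known from lymphocytes (-0.87, -0.06 and 3.06 ± 0.47). Serpinb9b was at or under 3 counts in each day 4 control and at 3.97, 14.3 and 2.96 CPM in EXP. In the lower direction they included Nog (0.75, 0.23 and -3.43 ± 0.64) and Cyp4b1, a cytochrome P450 that hydroxylates fatty acids (0.34, 0.62 and -1.35 ± 0.32). These genes differed from day 1 (adjusted p 0.0003, 0.00123, 0.000744, 0.0003, 0.00285 and 0.0132) and not from day 2 after adjustment.

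**Figure D5:**
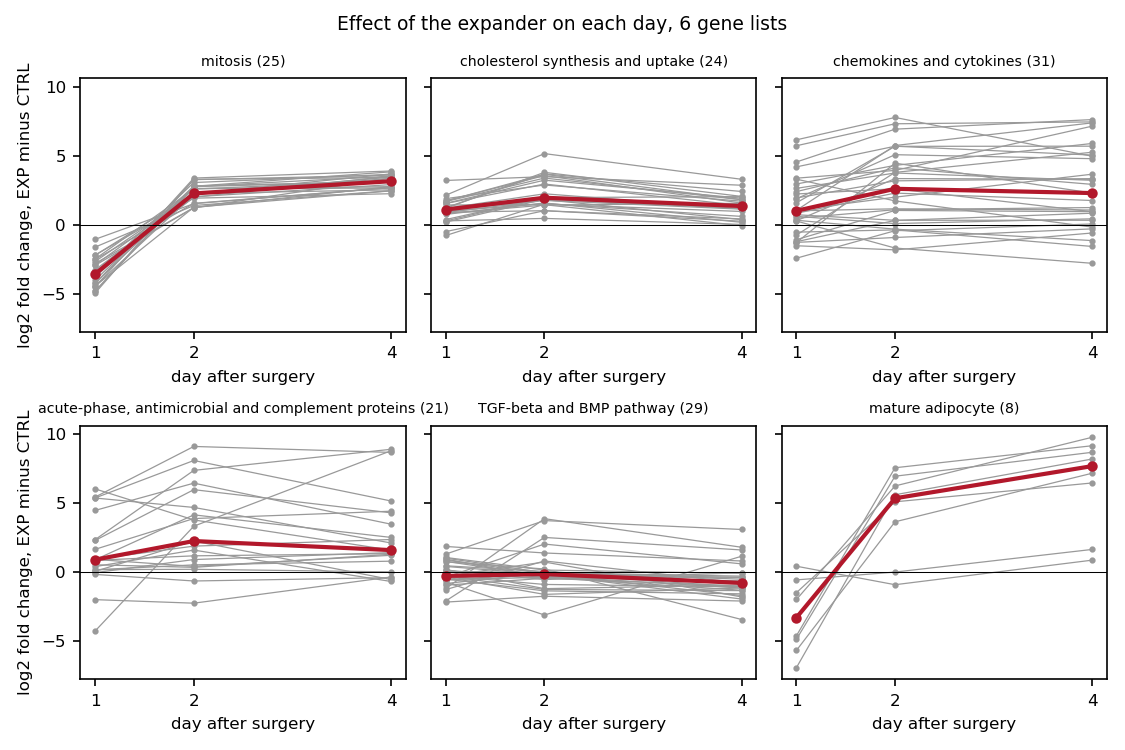
Log2 fold change of EXP against CTRL (vertical axis) on days 1, 2 and 4 (horizontal axis) for the tested members of 6 lists; grey lines are genes and the red line is the median. The mitosis medians were -3.55, 2.28 and 3.16, and the cholesterol medians 1.11, 1.97 and 1.36.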

How the data were processed

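RNA-seq counts per gene for 22 libraries were deposited by the authors as whole-number counts over 55414 Ensembl genes. Per the submitters' processing notes, reads were trimmed with Trimmomatic and the build was mm39; the aligner, the counter, the annotation and the use of strand are not given in the sources used here. Reads of overlapping genes therefore cannot be assigned with certainty, which touches Aldh1l1, Cebpd, Hspd1, Hspe1, Tap1, Gins2, Kif20a, Tk1, Bop1, Loxl3, Zyx, Lrig1, Pkm, Plod2, Spp1, Ikbke, Man1a, Serpinb9b, Adamts4, Anxa3, Bmp4, Cd34, Cd3e, Cd74, Col15a1, Col3a1, Dnaja1, Dnaja4, Ereg, Gbp4, Gbp7, Hmgcs1, Irf1, Lss, Ndrg1, Notum, Pdgfra, Prg4, Rrp9, Serpinb2, Slpi, Tap2, Trdc and Wnt11 among the genes named. Symbols came from GENCODE M21 (52081 genes matched) and promoters from RefSeq, matched by symbol.

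Counts were fitted with edgeR 4.0.16 in R 4.3.3 (robust quasi-likelihood, 1 mean per day and group, 22 libraries, 16 residual degrees of freedom). The filter was filterByExpr with a minimum count of 10, and scaling was by TMM. The range of total counts per library is given in the report. Floors of 3 counts cover counting error only. Standard errors were derived from the fit as the absolute log2 fold change over the square root of the quasi-likelihood F statistic. They include the spread between libraries. Days were compared by contrasts. Log2 CPM used a prior count of 2. A permutation test of 3 against 4 libraries cannot go below a two-sided exact p of 0.0571, so none is given. Alternatives were DESeq2 1.42.0, limma 3.58.1 (voom), other scalings and filters, the replicate block, a covariate for the library split and the omission of libraries. The pipeline was tested on simulated data. Members and lists were chosen with earlier results of these data known.

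The genes named are those with the largest changes and the smallest p at a mean of at least 5 CPM, up to 4 called members and the 2 highest members of each list, sort genes and markers, genes whose effect differed most from both earlier days, and those with the widest range in EXP. Adm, Fst, Rnf10 and members named to complete a count were chosen after their values were seen, and the promoters shown followed the same rule by p.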

Additional observations from a re-analysis of the deposited data

Results flagged for a closer look

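The effect of the expander on day 4 differed from that on day 1 at 74 of the 155 genes named in the text, against 13.3% of all genes, by the contrast of the 2 log2 fold changes in edgeR's quasi-likelihood test at an adjusted p under 0.05. Some of the 155 were named because their effect differed most from both earlier days, so this count is no result about them. Values below are the day 4 log2 fold change minus that of day 1, so that a positive value is a shift toward EXP. The contrast with day 2 had no such gene. Among cell cycle genes the difference was 8.61 in Cdca3, 7.85 in Cdk1, 6.58 in Ccnb2, 6.01 in Kif20a, 3.82 in Tk1 and 2.41 in Gins2, whereas Pcna shifted by -0.83. In each of those that shifted toward EXP, the log2 fold change on day 1 was below 0.

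Among matrix genes and their enzymes it was 5.35 in Col12a1, 4.21 in Col14a1, 3.94 in Col6a5, 3.62 in Col8a1 and 3.47 in Col5a3. Enzymes that modify or crosslink collagen shifted by 4.20 (Plod2), 4.19 (Loxl3), 1.62 (Loxl1) and 1.27 (P4ha2), the last from a larger fall on day 1. Spp1 shifted by 5.16, Mfap5 by 3.85, Plat by 3.05, Prg4 by 2.75, Csgalnact1 by 2.77 and Serpine2 by 1.31. Dcn, with a difference of -0.93, Ltbp4, with -2.17, and Man1a, with -0.91, moved the other way.

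Of the secreted signals and acute-phase genes, Hp differed by 6.53, Reg1 by 6.92, Lbp by 2.75, Il1rl1 by 4.10, Cxcl12 by 3.00, Il11 by 2.93 and Oas1a by 4.53. Csf1 differed by -1.47 and Ccl19 by -3.06. Growth factors and their binding proteins gave 6.19 for Wnt2, 4.47 for Fgf23, 3.17 for Vegfd and 2.69 for Igfbp4. Members of the BMP and Wnt pathways gave -4.18 for Nog, -3.84 for Notum, -3.63 for the ligand Wnt11, -2.36 for Id1 and -1.07 for Id3. Adipocyte genes differed by 13.53 in Cidec, 13.04 in Cfd, 12.83 in Adipoq and 7.94 in Fabp4, and Mup7, Mup22, Mup11 and Mup19 stood at 9.81, 9.07, 8.98 and 8.26.

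Other shifts toward CTRL were -1.84 in Ndrg1, -1.84 in Per1, -1.63 in Klf9, -3.12 in Cebpd, -1.39 in Fosl2, -0.70 in Dnaja1, -1.20 in Lrig1, -1.05 in Ntn1, -3.57 in Ces2c, -2.72 in Aplp1 and -1.69 in Cyp4b1. The remaining shifts toward EXP were 11.64 in Serpinb9b, 7.59 in Car4, 6.76 in Serpinb2, 4.91 in Lmcd1, 3.93 in Itgb7, 3.58 in F3, 3.51 in Anxa3, 2.14 in Ikbke, 1.66 in Mvd and 1.48 in Eno1. The endothelial genes Emcn and Kdr differed by 6.96 and 3.90. In genes at or under 3 counts in a group, such as Serpinb9b and Cidec, the fitted value depends on the prior count and gives no bound.

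In 22 of 197 sets of 4 CTRL values (155 genes and 42 list means), 1 library stood apart by the 95% value of Dixon's ratio. That value holds for independent normal values, which CPM of related genes and of lists with shared members are not. The count is therefore not set against chance. In Acta1, Car4, Emcn, Reg1, Reg3g, S100a8, Serpinb9b and Trdc the other controls had no counts, so any count in the remaining one was flagged. CTRL 1 was the highest control for Cdk1 (4.83 CPM), Mup22 (4.16 CPM), Mup19 (3.19 CPM), Mup7 (2.13 CPM), Mup11 (1.64 CPM), Tyrp1 (1.64 CPM), Lmcd1 (0.822 CPM) and, each at 0.0967 CPM, Cidec, Reg1 and Serpinb9b. CTRL 2 was highest for Reg3g and Trdc (0.129 CPM each) and Emcn (0.0429 CPM), and CTRL 3 for Acta1 (0.0838 CPM) and S100a8 (0.0419 CPM). CTRL 4 was highest for Il33 (31.9 CPM), Ereg (20.9 CPM), Fgf23 (0.649 CPM) and Car4 (0.216 CPM). Of the list means on the log2 CPM scale, class I presentation was lowest in CTRL 1 (7.14), endoplasmic reticulum folding lowest in CTRL 4 (7.19) and amino acid and one-carbon metabolism highest in CTRL 1 (4.83).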

How the results depend on the processing

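Counts of genes called on day 4, 3943 by edgeR over all libraries, came to 1128 on the day 4 libraries alone, 1368 without CTRL 3 and CTRL 4 and 2405 with an absolute log2 fold change of at least 1 required, and ranged from 1633 to 5011 when 1 library was left out. The other settings stayed within 1.5 times: 4680 with DESeq2, 3251 with limma voom, 3950 with DESeq2 size factors, 5287 without TMM scaling, 2927 without the filter on low counts and 2887 when the split of the libraries entered as a term. Without TMM scaling 80.7% of the calls were higher, against 57.0%, and the median over all genes moved by more than 0.1. No setting reversed a called gene named in the text. The contrast of the day 4 and day 1 effects, 2341 genes, gave 1420 without CTRL 3 and CTRL 4 and 1275 to 3503 with 1 library left out. That of day 4 and day 2, 0 genes, gave 34 with DESeq2, 16 with limma voom, and 0 to 67 with 1 library left out.

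In a fit that took replicate numbers as a block (replicate block), 2702 genes passed on day 4 and 783 differed between days 4 and 1. The deviations of same-numbered CTRL and EXP libraries correlated at 0.0795, 0.146 and 0.109 on day 4. The labels name no shared animal or batch, so the numbers were not taken as pairs, although each library with a same-numbered partner correlated best with that partner.

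Of 140 named genes called, 29 lost the call when some single library was left out and 56 under at least 1 setting of any kind. Many were named for a small p or a large change, so these counts do not stand for all calls. Of all 3943 calls, 1571 were also made without EXP 1, 1936 without EXP 2 and 2618 to 3643 without another single library. On the day 4 libraries alone 1108 of the 3784 tested were. Among named genes, signs changed in those that were not called. C4b stood at -0.27 in the replicate block fit and between -0.27 and 0.42 with 1 library left out, Ccl7 between -0.47 and 0.68, and Insig1 between -0.48 and 0.25. Insig1 was at 0.0289 with limma voom. Without TMM scaling Insig1 was at 0.21, Hspa5 at 0.0812, Pcna at 0.15 and Thy1 at 0.0253. Counts within lists were within 1.5 times in 1176 of 1462 comparisons. These include comparisons with no call in either fit, such as all those of the mast cell list, where no gene was tested. The cause of the shifts in signs and counts was not tested. At 24833235 counts or more per library, 3 counts were the floor below which no fold was given.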

Other observations

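The largest falls among genes called on day 4, with a mean of at least 5 CPM and no overlap between the groups, included several secreted and membrane proteins not described above. Igfbp2, a binding protein of IGFs, was at 8.56, 5.27, 47.1 and 19.3 CPM in CTRL and 0, 0.174 and 0.428 CPM in EXP (-6.69 ± 1.27, adjusted p 0.00197 by edgeR's quasi-likelihood test). The membrane protein Tmem132c was at 27.3, 39.5, 257 and 143 CPM and 0.0268, 5.83 and 10.2 CPM (-4.46 ± 1.13). Wnt11, a ligand of noncanonical Wnt signalling, was at 6.19, 18.9, 46.7 and 69.8 CPM and 1.69, 2.05 and 3.71 CPM (-3.84 ± 0.83), and the secreted protease Htra1 was at 145, 229, 1215 and 1049 CPM and 7.59, 55.4 and 79.1 CPM (-3.80 ± 0.96). In these genes CTRL 3 and CTRL 4 stood above CTRL 1 and CTRL 2, and EXP lay below all of them.

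Ces2c, a carboxylesterase, was at 2.95, 9, 10.6 and 35.4 CPM and 0.188, 1.08 and 2 CPM, with CTRL 4 highest. Aplp1, a relative of the amyloid precursor protein, was at 4.01, 8.1, 26.4 and 24.3 CPM and 0.912, 0.486 and 2.43 CPM, the interferon-induced GTPase Gbp4 at 8.02, 12.9, 29.2 and 28.2 CPM and 0.429, 0.59 and 3.71 CPM, and the cochaperone Dnaja4 reached 0.67, 0.937 and 0.714 CPM in EXP (-3.57 ± 0.94), with CTRL 3 and CTRL 4 above CTRL 1 and CTRL 2 in the latter 3 genes. Without CTRL 3 and CTRL 4 the log2 fold changes were -5.13 in Igfbp2 (adjusted p 0.0192), -2.64 in Tmem132c (0.129), -2.34 in Wnt11 (0.0647), -1.97 in Htra1 (0.175), -2.47 in Ces2c (0.0354), -2.26 in Aplp1 (0.0263), -2.74 in Gbp4 (0.0885) and -1.46 in Dnaja4 (0.289). Igfbp2, Ces2c and Aplp1 were thus called there and the other genes of this group were not. Leaving out EXP 1 alone ended the calls of Htra1 (adjusted p 0.0523), Dnaja4 (0.0672) and Gbp4 (0.0588), as did leaving out EXP 2 for Gbp4 (0.0548). Gbp4, Wnt11 and Dnaja4 share exon sequence with other genes, and Gbp4 is one of a family of similar copies.

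Among the 5 genes with the widest range over the 3 EXP libraries were 4 major urinary protein genes and Adipoq. Besides Mup7 and Mup22, Mup11 was at 0, 18.2 and 65.6 CPM and Mup19 at 0.0805, 20.1 and 79.4 CPM in EXP, against 0.0865 to 1.64 CPM and 0.214 to 3.19 CPM in CTRL, where CTRL 1 was highest. Mup11 was not called without EXP 3 (adjusted p 0.0593), and Mup19 was not called without CTRL 3 (0.0528), CTRL 4 (0.0524) or EXP 3 (0.0937).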
